A study of Mus musculus with 30 samples.

Results

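Serum small RNAs of 32-34 nt were those sequences of a small RNA count table whose length is 32, 33 or 34 bases. Length alone chose them, and 2873 of the 21634 unique sequences in the table met the rule. They came from serum of C57Bl/6J mouse males aged 3 months. MSUS males had been exposed after birth, for 14 days, to unpredictable separation from the mother combined with unpredictable stress of the mother, and CTRL males had been left undisturbed. The comparison asked whether this early exposure was accompanied by a different set of small RNAs in adult serum.

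Serum of mice is known to hold fragments of longer structural RNAs beside microRNAs, and tRNAs cut in or near the anticodon loop are among the best known of them. The genes of tRNAs carry an internal promoter of an A box and a B box, so that its letters are part of the tRNA itself. Histidine tRNA is set apart from the other tRNAs by a G that is added in front of its encoded first base after transcription.

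The data were 4 libraries of MSUS males (numbers 6, 7, 8 and 10) and 4 of CTRL males (numbers 1, 2, 3 and 5). Values per library are given in these orders. The libraries held 16368329, 15391664, 13308756 and 12445867 counts in CTRL and 16733257, 15446930, 12744641 and 12621261 in MSUS. Every pair of libraries differed by more than sampling noise. The labels do not say whether a library is 1 animal or a pool, so the p-values measure the spread between these samples. RNA shed by fewer cells and less RNA shed by each cell cannot be told apart in such samples.

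CTRL library 5 stood apart from the other CTRL libraries in ratios between closely related sequences. A pair of abundant 32-nt sequences differ by 1 substitution, G6T (positions count from 1 at the 5′ end, with the base of the more abundant sequence first). The sequence with T had 23.0, 26.4, 23.0 and 39.7 counts per 100 counts of the sequence with G in CTRL, and 37.2, 36.96, 35.3 and 35.8 in MSUS. CTRL library 5 thus held the highest value of the 8 libraries, and the other CTRL libraries held the lowest values. Calls that change without this library are therefore given beside those with it. The library was singled out from these same data, after its values were seen to lie near those of MSUS. Leaving it out can widen the distance between the groups for that reason, so calls without it are no separate support for a difference. A batch that could hold these libraries is not given in the labels, and its part in the results was not tested.

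By length, 1529 members were 32 nt, 902 were 33 nt and 442 were 34 nt long. They made up 13.3% of the sequences of the table and 43.6% of all its counts. Most members were rare, with a median of 70 counts over the 8 libraries, a lowest total of 8 and a highest of 20650181. In mean share of the class, with each library weighted equally, 2 sequences made up 50% of its counts, 11 sequences 90% and 226 sequences 99%. Counts were present in all 8 libraries for 1727 members and in 1 library for 69. A single read was never listed in the table, so a 0 may stand for a sequence that was read 1 time.

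The class took 39.1, 52.4, 44.3 and 35.7% of the counts in the CTRL libraries and 57.7, 33.4, 50.8 and 32.5% in the MSUS libraries. Both the highest and the lowest share were those of MSUS libraries, and the groups overlapped. The binomial 95% confidence intervals (Wilson) reached 0.0274 percentage points or less to either side and cover counting error only. The share was 42.9% ± 7.24 (SD, n = 4) in CTRL and 43.6% ± 12.6 (SD, n = 4) in MSUS, a difference of 0.749 percentage points, small beside the scatter of the libraries (exact permutation test, two-sided, p = 0.971, adjusted p = 0.971 over 2 such tests). Without CTRL library 5 the difference was -1.63 percentage points, and its direction also turned without CTRL library 1, MSUS library 6 or MSUS library 8. The smallest p that 4 against 4 libraries allow is 0.0286. Sequences of 28-31 nt varied in the other direction and took 38.7, 27.9, 27.3 and 36.99% in CTRL and 25.9, 47.0, 32.4 and 41.8% in MSUS.

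Within the class, sequences of 32 nt held 50.5, 54.0, 53.1 and 52.5% of the counts in CTRL and 52.1, 49.5, 60.4 and 48.4% in MSUS. MSUS library 8 had the highest share at 32 nt. The mean length weighted by counts was 32.50, 32.47, 32.48 and 32.51 nt in CTRL and 32.49, 32.52, 32.40 and 32.54 nt in MSUS. It was 32.49 nt ± 0.0175 (SD, n = 4) in CTRL and 32.49 nt ± 0.0594 (SD, n = 4) in MSUS and did not differ beyond the scatter (exact permutation test, two-sided, p = 0.943, adjusted p = 0.971 over the same 2 tests).

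Members that share their first 20 bases were joined into 5′ groups. There were 1274 such groups, of which 820 consisted of 1 sequence, 20 held 10 or more, and the largest held 152. The 8 most abundant groups held 566 sequences and 94.5% of the class, and the leading 3 held 82.3%. The most abundant sequences of 7 of them are shown, each named by the first 7 bases of its group, with the bases after the shared first 20 in capitals:
GTTTCCG group: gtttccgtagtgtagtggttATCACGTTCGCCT
GCATTGG group: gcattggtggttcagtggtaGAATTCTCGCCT
GCATTTG group: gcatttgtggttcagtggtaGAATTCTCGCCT
GCCCGGC group: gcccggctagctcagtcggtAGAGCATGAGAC
GCCCGGA group: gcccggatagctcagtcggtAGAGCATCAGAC
GCATGGG group: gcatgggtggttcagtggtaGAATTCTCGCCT
GGCCGTG group: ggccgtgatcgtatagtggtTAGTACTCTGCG

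The GTTTCCG group was the largest in every library, with 50.3, 44.8, 47.5 and 46.7% of the class in CTRL and 46.3, 50.4, 38.2 and 50.3% in MSUS. The GCATTGG group came second and held 25.5, 31.2, 27.7 and 23.0% in CTRL and 29.4, 20.8, 34.004 and 23.8% in MSUS. Its share was high where that of GTTTCCG was low in MSUS library 8, and low in MSUS library 7. The GCATTTG group, which differs from it at 1 of the first 20 bases, held 5.87, 8.24, 6.37 and 9.12% in CTRL and 10.9, 7.68, 12.0 and 8.50% in MSUS. The groups of libraries overlapped in each of these.

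The GCCCGGC group held 4.06, 3.29, 3.72 and 3.78% of the class in CTRL and 2.78, 4.53, 3.85 and 3.29% in MSUS. The GCCCGGA group held 3.82, 3.01, 4.36 and 4.90% in CTRL and 1.85, 5.27, 2.63 and 2.70% in MSUS. For this pair MSUS library 6 was the lowest and MSUS library 7 the highest in both groups. The GCATGGG group held 1.33, 1.80, 1.83 and 1.77% in CTRL and 2.17, 1.55, 2.22 and 2.15% in MSUS. The GGCCGTG group held 1.92, 0.729, 0.947 and 1.19% in CTRL and 0.476, 1.87, 0.633 and 1.13% in MSUS, with the highest shares in CTRL library 1 and MSUS library 7. The next group, led by a 34-nt sequence, had almost the same mean share of 1.11%, of which CTRL library 5 had 2.87% and the other libraries 0.386 to 1.60%.

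Names could be given only where a sequence matched the RefSeq promoter windows (300 bases, GRCm38.p6) exactly, since these cover whole tRNA genes at 4 of the 430 tRNA genes of the annotation and reach into 10. Of the members, 18 matched such a window, which together held 44.6% of the class counts, 17 of them within or across the start of 6 nuclear tRNA genes, and none lay in a microRNA hairpin of RefSeq. The leading GTTTCCG sequence lay on the minus strand at chr13:23446182-23446214 and began at the first base of n-TVcac9, a valine tRNA gene with the anticodon CAC at chr13:23446142-23446214. Other tRNA genes may hold the same letters. The whole gene is shown, in the strand of the tRNA, with the leading sequence in capitals:
n-TVcac9: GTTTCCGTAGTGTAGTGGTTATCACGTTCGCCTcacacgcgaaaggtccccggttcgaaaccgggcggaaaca
The sequence thus covered the first 33 of the gene's 73 bases and ended directly before the anticodon letters.

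The GGCCGTG sequence had no exact match among those counted, but without its first base it began at the first base of n-THgtg7, a histidine tRNA gene with the anticodon GTG at chr3:96452495-96452566. The base in front of the gene in the genome is the C of the sequence with the fewest counts. With the 31 following bases fixed, the 4 possible first bases are shown in capitals:
first base G: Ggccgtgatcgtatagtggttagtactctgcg
first base A: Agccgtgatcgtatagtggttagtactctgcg
first base T: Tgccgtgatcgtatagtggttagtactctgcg
first base C: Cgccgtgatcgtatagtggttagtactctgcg
The sequence with G took 88.7, 87.9, 87.3 and 87.6% of the counts of these 4 in CTRL and 88.8, 90.1, 87.7 and 87.7% in MSUS. A took 6.17% and T 5.35% over all libraries, while C, the base of the genome, took 0.0255% with 128 counts. G was thus the main first base in each of the 8 libraries.

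Other matched members were rarer. A 34-nt piece of n-TTagt9, a threonine tRNA gene with the anticodon AGT, had 4949 counts and began 40 bases after the start of the gene, so it came from the 3′ part. A 32-nt sequence with 309 counts began at the first base of n-TAagc16, an alanine tRNA gene. Pieces of n-TNgtt7 (asparagine, 62 counts) and n-TRtcg5 (arginine, 48 counts) came from the 3′ parts of these genes. The only reported match outside a tRNA gene had 26 counts and fell at both Hba-a1 and Hba-a2, the genes of the alpha chains of haemoglobin.

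Most members carried letters of a tRNA promoter. The A box motif, searched in the strand of the read, was found in 1769 members (61.6%) that made up 97.2% of the class counts. In 1607 of them it started at base 8, and these sequences held between 94.7 and 98.2% of the class counts in a library. The same motif was found in 54.3% of the sequences of 28-31 nt, in 1.17% of those of 20-24 nt and in 62.7% of those of 35-49 nt. Of all 32851 promoter windows of 300 bases, 12.5% had it on either strand. The B box, searched separately, was found in 81 members (2.82%) with 0.0443% of the class counts and in 0.122% of the windows. These matches describe letters and show no binding. Sequences that start with G held 96.5% of the class counts, against 90.5% at 28-31 nt and 0.713% at 20-24 nt.

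The 3′ ends of the GTTTCCG group varied little. Its 3′ variants are shown with the last bases in capitals:
1 base shorter: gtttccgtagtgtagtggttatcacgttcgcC
most abundant: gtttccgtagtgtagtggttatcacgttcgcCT
other last base: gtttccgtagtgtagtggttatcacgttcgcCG
plus C: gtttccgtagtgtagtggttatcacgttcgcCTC
plus T: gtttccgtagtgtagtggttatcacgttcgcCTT
plus G: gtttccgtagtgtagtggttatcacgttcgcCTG
The most abundant sequence took 87.8, 89.2, 85.5 and 85.3% of the group's counts at 32-34 nt in CTRL and 90.6, 88.4, 90.3 and 89.8% in MSUS. The form that lacks its last base took 8.42, 6.48, 10.4 and 11.0% in CTRL and 5.50, 7.43, 6.11 and 6.23% in MSUS. Both forms together made up most of the group in each library, and the groups of libraries overlapped in both. The 34-nt forms were rare, with 2019 counts for the added C, which is the next base of n-TVcac9, 1074 for T, 119 for G and 0 for A. The form with T had 73, 102, 62 and 104 counts in CTRL and 289, 175, 130 and 139 in MSUS. Its share of the group's counts was higher in each MSUS library than in each CTRL library, and it was named after its values were seen.

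In other leading groups the 3′ end varied much more between libraries. All lengths of a group were counted for this, so that ends outside 32-34 nt were seen too. In the GCATTGG group, the 32-nt form took 28.2, 49.2, 41.6 and 29.6% of the counts in CTRL and 56.6, 21.0, 50.5 and 24.3% in MSUS. Nearly all of the rest ended 1 or 2 bases earlier, with 44.3, 36.8, 42.9 and 46.9% at 31 nt in CTRL and 32.5, 42.3, 33.9 and 36.6% in MSUS. MSUS libraries 6 and 8 and CTRL libraries 2 and 3 thus held the longer ends, and MSUS libraries 7 and 10 the shorter ones.

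The same 4 libraries held the longer ends in 3 further groups of those shown. At 32 nt, the GCATTTG group had 31.4, 51.7, 44.5 and 32.5% of its counts in CTRL and 59.6, 23.8, 54.0 and 28.7% in MSUS. The GCATGGG group had 48.0, 66.7, 60.4 and 45.7% at 32 nt in CTRL and 70.4, 34.7, 67.2 and 46.8% in MSUS. In the GCCCGGC group the same 4 libraries held the longer ends 1 base further on, between 32 and 33 nt. Its 33-nt forms took 22.6, 44.3, 36.4 and 28.1% in CTRL and 54.8, 18.5, 42.2 and 23.2% in MSUS. These are values of the same 8 libraries and are not independent of each other. The 4 libraries with the longer ends were also those with the highest class shares. In the groups compared at 32 nt, the ends at 30 and 31 nt fall outside the class, so longer ends raise its share by definition. This does not apply to the GCCCGGC group, where the ends at 32 and 33 nt both lie within the class. MSUS libraries held the highest and the lowest value in each of the 4 groups.

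The GCCCGGA group, which differs from GCCCGGC at 1 of the first 20 bases, varied less in share but in the same libraries. It had 97.3, 96.6, 97.0 and 97.0% of its counts at 32 nt in CTRL and 95.004, 96.8, 96.2 and 96.6% in MSUS. Its rare 33-nt forms took 0.568, 1.69, 1.20 and 0.788% in CTRL and 3.28, 0.649, 2.07 and 0.955% in MSUS. They were highest in MSUS libraries 6 and 8 and CTRL libraries 2 and 3. The GGCCGTG group had 62.0, 51.3, 57.5 and 47.7% at 32 nt in CTRL and 48.8, 60.2, 52.9 and 59.8% in MSUS. Here the 34-nt form was highest in MSUS libraries 6 and 8, with 11.4 and 7.91% of the group. CTRL libraries 2 and 3 came next with 5.78 and 3.75%, against 1.90 to 2.90% in the other libraries. Where the GCCCGGC sequence was followed by a further base it was T in 99.8% of the counts, and T likewise made up 99.9% for GCCCGGA and 99.7% for GGCCGTG. For GGCCGTG this T is the next base of n-THgtg7, whose letters continue with TT as in the 34-nt form. For GCCCGGC and GCCCGGA no gene was matched, so whether the T is a letter of the gene is not known here.

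Many members were close relatives of more abundant ones. For 2374 of them (82.6%), a more abundant member of the same length differed by 1 substitution, and for 746 that member was 1 of the 8 leading sequences. Another 1-base relation, an extension of a sequence in the table by 1 base at the 3′ end, was found for 1376 members (47.9%). Position 6 was the most frequent place of the substitution, with 174 members, followed by position 1 with 108, position 19 with 104 and position 9 with 103.

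Substitutions of the leading GTTTCCG sequence were most abundant at position 26, with 2.49 counts per 100 of the leading sequence over 3 sequences, against a median of 0.0356 per position. G26A had 1.137, 1.34, 1.34 and 1.37 counts per 100 in CTRL and 1.45, 1.46, 1.40 and 1.41 in MSUS. The values lay higher in each MSUS library than in each CTRL library, by a margin smaller than the distance of CTRL library 1 from the other CTRL libraries. Position 33, the last base, came next. T33G had 1.29, 1.67, 1.65 and 0.745 in CTRL and 0.718, 0.878, 0.609 and 0.867 in MSUS, so that CTRL library 5 lay among the MSUS libraries. The same change at the last base of the GCATTGG sequence, T32G, had 0.571, 0.670, 0.699 and 0.309 in CTRL and 0.311, 0.342, 0.256 and 0.363 in MSUS. CTRL libraries 1, 2 and 3 were again high and CTRL library 5 was not.

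At position 6, CTRL library 5 also lay with MSUS in less abundant variants. G6A of the GCATTGG sequence had 0.263, 0.275, 0.273 and 0.349 counts per 100 in CTRL and 0.352, 0.347, 0.348 and 0.385 in MSUS. G6A of the GCCCGGC sequence had 1.01, 0.967, 1.01 and 1.28 in CTRL and 1.40, 1.45, 1.44 and 1.45 in MSUS. In the second of these the groups did not overlap, but CTRL library 5 was nearer to MSUS than to the other CTRL libraries. At position 29 of the GCCCGGC sequence, A29C varied little, with 38.4, 39.0, 38.9 and 38.5 in CTRL and 38.6, 37.4, 38.5 and 35.6 in MSUS. A29G of the same sequence varied more, with 50.4, 37.6, 29.7 and 34.2 in CTRL and 35.3, 40.3, 53.1 and 57.7 in MSUS, and its groups overlapped. These variants were chosen after their values were seen and were not tested.

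MSUS and CTRL were then compared sequence by sequence with edgeR's quasi-likelihood test on counts scaled by TMM. Of the 2873 members, 903 exceeded 20 counts in 4 or more libraries and entered the test, and the 1970 others held 0.218% of the class counts. At an adjusted p of 0.05 this test called 0 of the 903, where 0 of all 5513 tested sequences (0%) passed. At an unadjusted p under 0.05 there were 73 members, 8.08% of those tested, against 12.4% of all sequences. Of the 73, 58 were higher in MSUS (6.42% of members, 6.44% of all sequences) and 15 lower (1.66% of members, 5.97% of all sequences). With library totals in place of TMM, 42 of 69 were higher. The median log2 fold change was 0.12 over the members and -0.03 over all sequences tested. Without MSUS library 6 alone the median over the members turned to -0.11, and 36 of 71 members at an unadjusted p under 0.05 were higher. It was 0.02 without CTRL library 5 and 0.26 without CTRL library 2. The exact test of edgeR called 6 members and 34 of all 5513 sequences, and DESeq2 called 13 members and 52 of all sequences, of which 5 and 13 members were higher in MSUS. Without CTRL library 5, the quasi-likelihood test called 11 of 877 members, 8 of them higher in MSUS, and 122 of all 5218 sequences. The filter still asked for 4 libraries, so a sequence over it in MSUS alone could enter and one in CTRL alone could not. The direction of these calls depends in part on that filter.

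By 5′ group, 522 of the 1274 groups were tested and none passed the adjusted p of 0.05 with the quasi-likelihood test, where 1 of all 2803 tested groups of every length (0.0357%) did. The unadjusted p was under 0.05 for 53 groups of 32-34 nt, 10.2% of those tested, against 14.8% of all groups. Of these, 42 were higher in MSUS (8.05% of those tested, 7.96% of all groups) and 11 lower (2.11%, against 6.81%). The median log2 fold change was 0.11 over the groups of 32-34 nt and -0.04 over all groups. Over the groups of 32-34 nt it turned to -0.09 without MSUS library 6, and was 0.01 without CTRL library 5 and 0.32 without CTRL library 2. The exact test of edgeR called 1 group of 32-34 nt and 13 of all groups, and DESeq2 called 12 and 70. Without CTRL library 5, 20 of 510 groups passed with the quasi-likelihood test, 17 of them higher in MSUS, and 188 of all 2650 groups. Here too a group over the count filter in MSUS alone could enter and one in CTRL alone could not, which bears on the direction of these calls.

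The 8 leading groups had log2 fold changes between -0.38 and 0.56. The largest was that of GCATTTG, with 22319, 48199.9, 27746 and 28310.1 CPM in CTRL and 72697, 23162, 62834 and 27765 in MSUS (log2 fold change 0.56, standard error 0.39, adjusted p = 0.546 by edgeR's quasi-likelihood test). MSUS libraries 6 and 8 were the highest of the 8, and the groups overlapped. The log2 fold change of GCATTTG was 0.26 without MSUS library 6 and 0.88 without CTRL library 2. The lowest was that of GCCCGGA, with 14512, 17598, 18999 and 15196 CPM in CTRL and 12345, 15885, 13745 and 8827 in MSUS (log2 fold change -0.38, standard error 0.24, edgeR's quasi-likelihood test, adjusted p = 0.492). The groups overlapped here too. The log2 fold change was 0.03 for GTTTCCG, 0.12 for GCATTGG and 0.01 for GCCCGGC, and their direction turned under other scalings or without single libraries.

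The 5 sequences and 5 groups with the smallest unadjusted p were rare, and none passed the threshold with the main test. They are shown with the base that differs from a more abundant member in capitals, each followed by that member. Where there is no such member, the bases after the first 20 are in capitals:
GGCTCGTTC: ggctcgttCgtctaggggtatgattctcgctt
GGCTCGTTG: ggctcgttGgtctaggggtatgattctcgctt
GTTTCTTTA: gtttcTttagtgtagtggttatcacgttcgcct
GTTTCCTTA: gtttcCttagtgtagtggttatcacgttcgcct
GGTCCCATT: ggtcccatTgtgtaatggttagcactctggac
GGTCCCATG: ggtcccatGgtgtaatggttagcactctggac
CAAGAGGTC: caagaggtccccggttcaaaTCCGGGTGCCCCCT

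The GGCTCGTTC sequence had 7.99, 11.5, 8.81 and 19.9 CPM in CTRL and 37.7, 29.6, 26.1 and 34.9 in MSUS. Each MSUS library was above each CTRL library, and CTRL library 5 was the highest of its group. The log2 fold change was 1.41 (standard error 0.33, adjusted p = 0.305 by edgeR's quasi-likelihood test), higher in 4 of 4 MSUS libraries, while edgeR's exact test gave an adjusted p of 0.0405, DESeq2 one of 0.00791 and the quasi-likelihood test without CTRL library 5 one of 0.00991. It differs by G9C from a sequence with 28262 counts whose own log2 fold change was 0.22 (standard error 0.25, edgeR's quasi-likelihood test, adjusted p = 0.727). Per 100 counts of that sequence it had 3.86, 4.93, 3.44 and 9.00 in CTRL and 11.4, 14.7, 8.18 and 16.1 in MSUS, where CTRL library 5 overlapped with MSUS library 8. The 5′ group of GGCTCGTTC was higher by a log2 fold change of 1.40 (edgeR's quasi-likelihood test, adjusted p = 0.231, and 0.00371 without CTRL library 5).

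The GTTTCTTTA sequence had 2.22, 4.02, 1.68 and 5.19 CPM in CTRL and 15.3, 7.93, 9.46 and 8.52 in MSUS. CTRL library 5 was again the highest of its group, and the groups did not overlap. The log2 fold change was 1.65 (standard error 0.40, adjusted p = 0.305 by edgeR's quasi-likelihood test), higher in 4 of 4 MSUS libraries. The adjusted p was 0.0405 by edgeR's exact test, 0.0124 by DESeq2 and 0.0324 by the quasi-likelihood test without CTRL library 5. For its 5′ group these were 0.0557, 0.00819 and 0.00980, against 0.231 by edgeR's quasi-likelihood test with all libraries. It differs by C6T from a sequence with 15300 counts, whose own log2 fold change was 0.73 (edgeR's quasi-likelihood test, adjusted p = 0.372). Per 100 counts of that sequence it had 2.30, 3.20, 1.99 and 5.38 in CTRL and 6.41, 5.83, 6.54 and 5.77 in MSUS, where CTRL library 5 was close to the MSUS libraries.

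The GGTCCCATT group consisted of 1 sequence of 32 nt. It had 10, 17, 7 and 19 counts in CTRL and 39, 46, 30 and 28 in MSUS. Only the 4 MSUS libraries exceeded 20 counts, so it met the count filter through the group in which it was higher, and the separation of the groups depends in part on the filter. It was not tested with an MSUS library left out. The log2 fold change was 1.45 (standard error 0.39, adjusted p = 0.231 by edgeR's quasi-likelihood test). Without CTRL library 5 the same edgeR test gave an adjusted p of 0.0304, and edgeR's exact test with all libraries gave 0.0644 for the group and called it when tested as a single sequence. With no count filter the quasi-likelihood test of edgeR gave an adjusted p of 0.353. It differs by G9T from a sequence with 14375 counts, whose log2 fold change was 0.76 (edgeR's quasi-likelihood test, adjusted p = 0.393). Per 100 counts of that sequence it had 0.662, 1.48, 0.917 and 0.933 in CTRL and 1.77, 1.47, 1.83 and 1.44 in MSUS, where the groups overlapped through CTRL library 2 and CTRL library 5 lay with the other CTRL libraries.

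A 33-nt sequence that starts with GACCCAGT was present with each of the 4 bases at position 9, which is shown in capitals because 2 of the 5 sequences with the smallest p are among them:
GACCCAGTG: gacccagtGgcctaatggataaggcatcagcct
GACCCAGTT: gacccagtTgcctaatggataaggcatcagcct
GACCCAGTC: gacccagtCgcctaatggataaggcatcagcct
GACCCAGTA: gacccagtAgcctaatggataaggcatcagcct
The most abundant, GACCCAGTG, had 23.1, 33.8, 16.5 and 25.4 CPM in CTRL and 57.0, 39.5, 64.2 and 49.4 in MSUS. GACCCAGTT had 6.01, 8.04, 3.20 and 6.47 CPM in CTRL and 13.3, 11.5, 13.7 and 15.01 in MSUS. In both, the groups did not overlap. GACCCAGTC had 2.94, 4.16, 1.82 and 2.99 CPM in CTRL and 7.87, 6.90, 7.87 and 6.57 in MSUS. GACCCAGTA had 1.74, 2.43, 1.53 and 2.63 CPM in CTRL and 6.03, 3.69, 6.92 and 4.79 in MSUS. In all 4 forms, each MSUS library was above each CTRL library, as it was in 32 of the 903 members (3.54%) and in 2.54% of all sequences tested. The log2 fold changes were 1.09 for GACCCAGTG, 1.17 for GACCCAGTT, 1.29 for GACCCAGTC and 1.36 for GACCCAGTA, with adjusted p values of 0.348, 0.348, 0.305 and 0.305 by edgeR's quasi-likelihood test. DESeq2 called all 4, with adjusted p values of 0.0317, 0.0282, 0.0102 and 0.0172, and edgeR's exact test called GACCCAGTC and GACCCAGTA, each with an adjusted p of 0.0481. The 5′ group of GACCCAGTA had an adjusted p of 0.231 by edgeR's quasi-likelihood test, 0.0166 by DESeq2, 0.0644 by edgeR's exact test and 0.0330 by the quasi-likelihood test without CTRL library 5. Without this library the sequences GACCCAGTA and GACCCAGTC did not pass the same edgeR test (adjusted p of 0.0624 and 0.0892). The form with G itself was thus higher, and relative to it GACCCAGTA had 7.53, 7.19, 9.29 and 10.3 counts per 100 in CTRL and 10.6, 9.36, 10.8 and 9.69 in MSUS, with overlapping groups. In this ratio CTRL library 5 was the highest of its group and lay within the range of the MSUS libraries. GACCCAGTC had 12.7, 12.3, 11.1 and 11.7 counts per 100 of the form with G in CTRL and 13.8, 17.5, 12.3 and 13.3 in MSUS, where CTRL library 5 lay with the other CTRL libraries.

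The CAAGAGGTC sequence of 34 nt was the only 1 of the 5 that was lower in MSUS. It had 55, 57, 30 and 22 counts in CTRL and 3, 13, 14 and 7 in MSUS. Only the 4 CTRL libraries exceeded 20 counts, so it met the count filter through the group in which it was higher, and the separation of the groups depends in part on the filter. It was not tested with a CTRL library left out. The log2 fold change was -2.04 (standard error 0.48, adjusted p = 0.305 by edgeR's quasi-likelihood test), lower in 4 of 4 MSUS libraries, as it was in 19 of the 903 members (2.10%) and 3.70% of all sequences tested. With edgeR's exact test the adjusted p was 0.0176 for the sequence and 0.0562 for its 5′ group, and DESeq2 gave no adjusted p for either. With no count filter, the quasi-likelihood test of edgeR gave adjusted p values of 0.334 for the sequence and 0.353 for the group. By 5′ group, each MSUS library was above each CTRL library in 24 of 522 groups (4.60%, against 4.99% of all groups) and below in 8 (1.53%, against 4.67%).

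Substitutions at position 9 were common among the small p values and were looked at for this reason, after their values were seen. Of 103 members that differ at position 9 from a more abundant member, 38 were tested, 31 had a log2 fold change above 0 with a median of 0.49, and 13 had an unadjusted p under 0.05. None of the 38 passed the threshold with edgeR's quasi-likelihood test. Of all 903 members tested, 60.4% had a log2 fold change above 0 and 8.08% an unadjusted p under 0.05, against 48.1% and 12.4% of all sequences tested.

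A member below the count filter was listed in all CTRL libraries and in no MSUS library. It is shown with the bases after the first 20 in capitals and was named after its values were seen:
GCGCCCATA: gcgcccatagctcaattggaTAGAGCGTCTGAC
It had 33, 38, 18 and 16 counts in CTRL and 0 in each MSUS library. It was the only member called by edgeR's quasi-likelihood test without a count filter (adjusted p = 0.0120), where 3 of all 21634 sequences were called, and its groups did not overlap. With few counts in CTRL and none listed in MSUS, its level in MSUS was not detectable at this depth.

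MicroRNAs of blood cells were measured in the same libraries as a description of the serum. miR-451a, the main microRNA of red cells, had 233, 228, 306 and 238 CPM in CTRL and 162, 100, 114 and 255 in MSUS. Its ratio to miR-23a-3p, the usual reference for haemolysis, was 2.16, 3.01, 3.76 and 4.29 in CTRL and 3.14, 1.37, 1.74 and 4.42 in MSUS, and the groups overlapped in both measures. miR-16-5p had 2183, 2289, 3285 and 2777 CPM in CTRL and 1812, 1659, 1527 and 2371 in MSUS. miR-223-3p of myeloid cells and miR-206-3p of muscle stayed below 3 CPM in all libraries, and miR-126a-3p and miR-150-3p were not listed. For miR-486a, miR-486b, miR-122, miR-1a and miR-133a no mature sequence was at hand to search with, so nothing can be said of their levels. The part of red cell RNA in the results on 32-34 nt was not tested.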

How the data were processed

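Small RNA of serum was sequenced from TruSeq small RNA libraries that the authors ran on the sequencer in 2 rounds and merged. The authors trimmed the reads with cutadapt 1.14 and deposited counts per unique sequence, not normalized. The filter that made the table is not given in the sources used here. Libraries were grouped by their labels, and none was left out. Members and lists were chosen with earlier results of these data known. Sequences, or sums over sequences that share their first 20 bases within a length class, were tested where 4 or more libraries exceeded 20 counts, by the quasi-likelihood test of edgeR 4.0.16 (R 4.3.3), TMM over the whole table and Benjamini-Hochberg adjustment over all lengths at 0.05. Standard errors are the fold change divided by the root of F. CPM are scaled by TMM. Shares and mean lengths were compared by exact permutation tests, two-sided (scipy 1.17.1). The tests were tried on simulated data. The groups named were 7 of the 8 most abundant, and the 5 sequences and 5 groups with the smallest unadjusted p. The remaining group of the 8 is not reported here. Alternatives were edgeR's exact test, DESeq2 1.42.0, other scalings and filters, robust estimation, groups by the first 18 or 24 bases, other denominators, and each library left out.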

Additional observations from a re-analysis of the deposited data

Results flagged for a closer look

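In a few groups of 4 libraries, 1 library lay far from the others. Among 32 values looked at in both groups, 64 groups of 4 in all, 5 were of this kind. Chance gives about 1 in 20 where values are independent and chosen beforehand. Some of these were chosen after they were seen and several come from the same groups. The count can therefore not be set against that rate.

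The share of the class held by the GCATGGG group was 1.33% in CTRL library 1 against 1.77 to 1.83% in the other CTRL libraries, and 1.55% in MSUS library 7 against 2.15 to 2.22% in the other MSUS libraries. G26A of the GTTTCCG sequence had 1.137 counts per 100 of the leading sequence in CTRL library 1 and 1.34 to 1.37 in the other CTRL libraries. G6A of the GCATTGG sequence had 0.349 counts per 100 in CTRL library 5 against 0.263 to 0.275 in the other CTRL libraries, and 0.385 in MSUS library 10 against 0.347 to 0.352 in the other MSUS libraries.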

How the results depend on the processing

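No paired analysis was possible because the MSUS and CTRL libraries of serum share no replicate number. The count of 0 called sequences of 32-34 nt became 6 with edgeR's exact test, 13 with DESeq2 and 1 with no count filter or filterByExpr, and it ranged from 0 to 11 with single libraries left out. The count of 0 called 5′ groups became 1 with the exact test, 12 with DESeq2 and 1 with no count filter or filterByExpr, and ranged from 0 to 20 with single libraries left out. Both highest counts are those without CTRL library 5, which was singled out from these same data. The count filter was unchanged with a library left out, and the cause was not tested. Other scalings and robust estimation left both counts at 0, and so did the first 18 or 24 bases for the groups.

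The difference in the share of counts, MSUS minus CTRL, was 0.749 percentage points. It was -0.496 as a share of distinct sequences and between -3.94 and 4.45 with single libraries left out. The difference in mean length was -0.0047 nt and lay between -0.0213 and 0.0233 nt with single libraries left out. No alternative took either past the threshold (lowest p = 0.229 in the exact permutation tests). With library totals and with TMM over the 32-34 nt features alone, the log2 fold change was -0.0277 and -0.0520 for GTTTCCG and -0.0381 and -0.0611 for GCCCGGC. With single libraries left out it ranged from -0.23 to 0.22 for GTTTCCG, from -0.15 to 0.45 for GCATTGG and from -0.14 to 0.17 for GCCCGGC, and none of these was past the threshold.

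With 4 libraries in each group and members of few counts, depth limits the precision of the rare sequences. Sequences below the unstated filter of the table were not analysed here.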
